A study of Mus musculus with 3 samples.

Results

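The immunity-related GTPases described here are 7 mouse genes, Irgm1, Irgm2, Igtp, Iigp1, Tgtp1, Tgtp2 and Ifi47, taken by gene symbol and gene identifier out of 55536 annotated genes. They were measured in 1 group of 3 libraries of total RNA, depleted of ribosomal RNA, from the cytosol of macrophages grown from the bone marrow of C57BL/6J mice. The macrophages received Lipid A, the TLR4-activating part of lipopolysaccharide, at 100 ng/ml for 12 h, were kept without it for 12 h, and received 100 ng/ml again for 20 min. Per the labels these are biological replicates 1, 2 and 3, with 1 donor identifier for all of them, no age, no sex and no altered allele, so each error is a spread between libraries that may be partly technical. No unstimulated, once-stimulated or nuclear library was analysed here, and the values are levels after the second exposure, not responses to it. Levels are in TPM, a transcript abundance that divides reads by transcript length and scales each library to the same sum, and means are given ± SD with n = 3.

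Immunity-related GTPases are proteins of the cell-autonomous defence of mouse cells. They are induced by interferons, and gather on the membranes of vacuoles that hold intracellular parasites and bacteria such as Toxoplasma and Chlamydia. They divide into classes by the loop that holds the phosphates of the nucleotide. The effector class carries the usual glycine-lysine-serine (GKS) ending and coats and disrupts the vacuole, while the regulatory class carries glycine-methionine-serine (GMS), sits on the membranes of the cell itself and keeps the effectors inactive there. In bulk RNA, fewer expressing cells and less RNA per cell cannot be told apart.

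The nucleotide-binding loop is shown because it separates the regulators from the effectors. The coding sequences below were read from the GENCODE M21 transcripts, on mm10, within the longest open reading frame of each gene, and each lies in a coding exon. They run 5′ to 3′ on the coding strand over 24 bases, and capitals mark the codon for the methionine or the lysine.
Irgm1, chr11:48866761-48866784, minus strand: ggggactctggcaatggcATGtca
Irgm2, chr11:58219695-58219718, plus strand: ggggactctggcaatggcATGtca
Igtp, chr11:58206275-58206298, plus strand: ggggactctggcaatggcATGtca
Tgtp1, chr11:48987667-48987690, minus strand: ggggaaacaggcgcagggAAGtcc
Tgtp2, chr11:49059534-49059557, minus strand: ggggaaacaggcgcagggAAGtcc
Ifi47, chr11:49095648-49095671, plus strand: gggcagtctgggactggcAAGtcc
The 3 regulators, Irgm1, Irgm2 and Igtp, had the same 24 bases with ATG, and Tgtp1 and Tgtp2 had the same 24 bases with AAG. Iigp1, whose sequence is not printed, also had a lysine codon at this place, which makes 4 members of the GKS class. Over the whole reading frame, the 3 pairs of GMS genes were 61.8% to 66.3% identical and the 6 pairs of GKS genes 53.4% to 99.7% identical. The 99.7% was that of Tgtp1 with Tgtp2, and the next highest GKS pair, Iigp1 with Tgtp1, was at 56.5%. The 12 pairs of 1 gene from each class were 46.8% to 50.7% identical.

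The sequence just upstream of the transcription start is shown for the members that hold letters of the interferon response. Signalling from the interferon receptors acts through the ISRE, bound by factors of the IRF family, and through the GAS, bound by factors of the STAT family. The ISRE was searched as GAAANNGAAA and the GAS as TTCNNNGAA, on both strands, in the RefSeq promoter windows of GRCm38.p6, which run from 250 bases before to 50 bases after each start. Of the 7 members 6 had a window there, and Iigp1 was not in the table. Capitals mark the GAS, first, and the ISRE, second. For Irgm1 they mark a pair of overlapping ISRE matches, printed without flanks because an exon of the noncoding transcript Irgm1-203 covers them.
Irgm1, chr11:48871435-48871450, minus strand: GAAATAGAAACCGAAA
Irgm2, chr11:58214882-58214942, plus strand: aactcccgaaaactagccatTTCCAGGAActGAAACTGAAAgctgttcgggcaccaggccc
Igtp, chr11:58199491-58199551, plus strand: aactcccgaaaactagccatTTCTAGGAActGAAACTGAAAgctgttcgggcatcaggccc
Tgtp1, chr11:48992294-48992354, minus strand: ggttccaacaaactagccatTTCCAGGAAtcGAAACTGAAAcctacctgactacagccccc
Tgtp2, chr11:49064253-49064313, minus strand: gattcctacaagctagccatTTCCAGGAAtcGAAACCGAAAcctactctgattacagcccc
The GAS began 75 bases before the RefSeq start in Irgm2, 45 in Igtp, 88 in Tgtp1 and 81 in Tgtp2. In each of these 4 genes the ISRE followed after a gap of 2 bases. The GENCODE transcript with most of the Irgm2 TPM, Irgm2-202, starts further downstream, at 58215028. Of all 32851 promoter windows, 3.44% held the ISRE letters, 8.30% the GAS letters and 0.454% both. The joined letters TTCNNNGAANNGAAANNGAAA, a form chosen after these windows were read, stood in 5 windows of the table (0.0152%), those of Igtp, Irgm2, Tgtp1, Tgtp2 and Gm12185, another gene of the family. Over the whole window, Igtp and Irgm2 were 72.8% identical and Tgtp1 and Tgtp2 66.0%. The Ifi47 window held neither set of letters. It covers the start of Ifi47-202, at 49076587, while the transcript with most of the reads, Ifi47-201, starts at 49087039, outside the window. A match is a description of letters and does not show binding.

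All 7 members were well above the level of 1 TPM in every library, a level that 9544 of the 55536 annotated genes reached. Summed over the members, the level was 997 TPM in replicate 1, 521 TPM in replicate 2 and 676 TPM in replicate 3, a mean of 731 ± 243 TPM. Replicate 1 was highest and replicate 2 lowest. The members made up 0.305%, 0.190% and 0.243% of the TPM of all protein-coding genes in replicates 1, 2 and 3. By mean TPM, Irgm1 stood at rank 185 and Tgtp1, the lowest member, at rank 2367 of 22028 protein-coding genes. Expected counts, the estimated reads per gene, totalled 32055937, 43616634 and 47864978 on annotated genes, and the members held 1547 counts or more in each library.

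The regulators were Irgm1 at the top of the family and Igtp and Irgm2 near its lower end. Irgm1 (ENSMUSG00000046879.7, chromosome 11, 48861968 to 48871683), which keeps effectors off the membranes of the cell and acts in autophagy, had 238, 165 and 189 TPM in replicates 1, 2 and 3, a mean of 198 ± 37.1 TPM. Its highest library was 1.44 times its lowest, the narrowest range of the 7 genes. Igtp (ENSMUSG00000078853.8, 58199556 to 58207591 on the same chromosome), also called Irgm3, had 101, 50.2 and 67.6 TPM, a mean of 72.8 ± 25.6 TPM. Irgm2 (ENSMUSG00000069874.7, 58199618 to 58222782), a regulator found at the Golgi, had 78.5, 44.1 and 56.5 TPM, a mean of 59.7 ± 17.4 TPM. In each library Igtp was above Irgm2, by 0.27 ± 0.09 on the log2 scale. Igtp and Irgm2 share 162 exon bases on the same strand, because the annotated transcript Irgm2-201 starts within Igtp. The deposited uncertainty of that division was small, with a posterior SD of 3.54 counts or less for either gene against 7145 counts or more.

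The GMS class held 41.8%, 49.8% and 46.4% of the members' summed TPM in replicates 1, 2 and 3, a mean of 46.0% ± 4.0, and the GKS class held 58.2%, 50.2% and 53.6%. The regulators' share was thus lowest in replicate 1, the library in which the family as a whole was highest. Within the GMS class, Irgm2 held 43.8%, 46.8% and 45.5% of the TPM of Igtp and Irgm2 together, a mean of 45.4% ± 1.49.

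Among the effectors, Tgtp2 and Tgtp1 are neighbouring and almost identical genes; the protein, also called Irgb6, is among the first to load onto the Toxoplasma vacuole. Tgtp2 (ENSMUSG00000078921.3, chromosome 11, 49057194 to 49064206) had 247, 108 and 150 TPM in replicates 1, 2 and 3, a mean of 168 ± 71.2 TPM. Tgtp1 (ENSMUSG00000078922.9, 48985327 to 48994172) had 38.6, 7.48 and 11.9 TPM, and replicate 1 stood apart from the other libraries. The mean of Tgtp1 was 19.3 ± 16.8 TPM over all libraries and 9.70 TPM without replicate 1. Tgtp1 thus made up 13.5%, 6.45% and 7.38% of the pair's TPM. This division rests on few bases. The main transcripts, Tgtp1-201 with 2823 bases and Tgtp2-201 with 2810, differed at 6 aligned bases and 1 internal gap base. Of all windows of 50 bases, 10.6% of those of Tgtp1-201 were not found in Tgtp2-201, and 10.2% of those of Tgtp2-201 were not found in Tgtp1-201. The reading frames of both genes have 1248 bases and differ at 4, which are G270C, C408T, C729T and C735A, with the Tgtp1 base first, the position counted from 1 at the A of the start codon, and the Tgtp2 base last. The stretch printed here covers bases 711 to 753 of the reading frame and was chosen to hold the last pair of the 4 differences, in capitals. It is therefore richer in differences than the frame as a whole.
Tgtp1, chr11:48987124-48987166, minus strand: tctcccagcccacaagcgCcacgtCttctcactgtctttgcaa
Tgtp2, chr11:49058991-49059033, minus strand: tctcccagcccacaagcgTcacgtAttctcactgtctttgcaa

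The expected counts of Tgtp1 were 4950, 1547 and 2517 in replicates 1, 2 and 3, with posterior SDs of 66.8, 37.6 and 50.9 counts as deposited. Those of Tgtp2 were 31457, 22292 and 31594. The second quantification, from the further deposited transcript tables, gave Tgtp1 13.0%, 6.65% and 8.16% of the pair's TPM. Both estimates divide the same reads, and both put Tgtp1 highest in replicate 1. The sum of the pair was 286, 116 and 161 TPM, a mean of 188 ± 87.9 TPM. It sets aside the division between the main transcripts, which have nearly the same length, but still depends on how many reads go to shorter transcripts. The pair held 24.9% of the members' summed TPM in the first quantification and 29.1% in the second. Tgtp1 also shares 223 exon bases on the same strand with Gm12185, which had 4.57, 1.00 and 1.84 TPM.

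Iigp1 and Ifi47 complete the effectors. Iigp1 (ENSMUSG00000054072.12, chromosome 18, 60376027 to 60392634), also called Irga6, oligomerises on the vacuole when bound to GTP and is the only member outside chromosome 11. It had 167, 73.1 and 117 TPM in replicates 1, 2 and 3, a mean of 119 ± 46.9 TPM. Replicate 1 was 2.28 times replicate 2 and replicate 3 was 1.59 times replicate 2. Ifi47 (ENSMUSG00000078920.3, chromosome 11, 49076587 to 49096974), also called Irgd, had 127, 72.3 and 84.4 TPM, a mean of 94.7 ± 29.0 TPM. Its exons share 111 bases on the same strand with the olfactory receptor gene Olfr56, which had 16.2, 6.99 and 13.9 TPM, and 106 bases on the opposite strand with the pseudogene Gm12188, which had at most 0.76 TPM. The strand setting of the counting was not stated, so it is not known how reads from the opposite-strand overlap were assigned. For Ifi47 the deposited posterior SD was small, at 0.31, 0.45 and 0.41 counts in replicates 1, 2 and 3. The expected counts of Ifi47 were 9277, 8487 and 10307.

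By mean TPM the order was Irgm1, Tgtp2, Iigp1, Ifi47, Igtp, Irgm2 and Tgtp1. The first 2 did not differ beyond the spread between libraries. Irgm1 was above Tgtp2 in 2 of 3 libraries, with a log2 difference of 0.30 ± 0.33, and Tgtp2 was higher in replicate 1. The other 5 neighbouring pairs kept their order in 3 of 3 libraries. The smallest mean difference of them was that of Igtp over Irgm2, given above. Iigp1 was above Ifi47 by 0.29 ± 0.24 on the log2 scale, but only by 0.02 in replicate 2. The widest was Irgm2 over Tgtp1, by 1.94 ± 0.81. An exact sign-flip test over 3 libraries cannot give a p below 0.25, so none was made. In the second quantification Tgtp2 was above Irgm1, by 0.04 ± 0.28 in 2 of 3 libraries, and the rest of the order was the same.

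**Figure D1:**
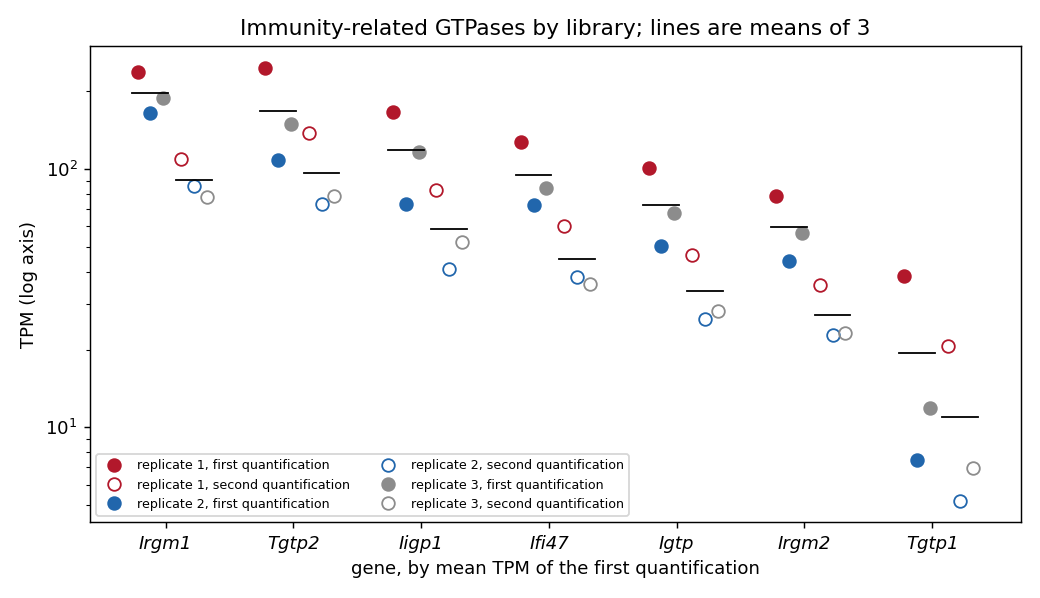
TPM of each immunity-related GTPase gene on a log axis, with filled circles for the first quantification, open circles for the second, 1 colour per replicate, and lines for the means of 3 libraries. Replicate 1 is the highest library for every gene in both quantifications, and Tgtp1 has the widest range, 7.48 to 38.6 TPM in the first.

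The 2 quantifications were set against each other because near-identical genes can be divided differently by each. The first gave about 2.03 times the TPM of the second at the median of 4068 protein-coding genes with a mean of 10 TPM or more. The members lay near that ratio, with 2.18 for Irgm1, 2.19 for Irgm2, 2.16 for Igtp, 2.00 for Iigp1 and 2.12 for Ifi47, and lower for the pair of copies, with 1.73 for Tgtp2 and 1.67 for Tgtp1. A gene was called different when 1 method exceeded the other at least 2-fold in each of the 3 libraries, which held for 0 of 7 members and for 10.4% of the 10308 genes tested. The count of members became 5 of 7 without replicate 2, a setting for which no share of all genes is given. After each quantification was rescaled to its protein-coding sum, 0 of 7 members and 15.9% of 13893 genes were called, and the log2 difference of the members, first minus second, lay between -0.28 ± 0.17 for Tgtp1 and 0.11 ± 0.03 for Irgm2. On that scale the levels of the 7 genes therefore differed by less than 2-fold between the methods, including those of Tgtp1 and Tgtp2.

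Irgm1 was divided between a pair of transcripts, while 1 annotated transcript held a mean of over 85% of each other member in the first quantification. Irgm1-202 held 74.8%, 74.7% and 75.1% of the gene's TPM in replicates 1, 2 and 3, and Irgm1-201 held 25.1%, 25.2% and 24.8%. The transcripts begin 46 bases apart, and the longest open reading frame has 409 codons in Irgm1-201 and 393 in Irgm1-202. The shares varied by at most 0.22 percentage points (SD) between libraries in the first quantification. The second put Irgm1-201 at 31.2% ± 0.68. Irgm2 resembled this on a smaller scale. Irgm2-202, with 395 codons, held 85.1% ± 1.24, and Irgm2-203, with 407 codons, 12.2% ± 0.45.

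Igtp-201, with the full reading frame of 423 codons, held 90.1% ± 0.38 of Igtp, and Igtp-202 and Igtp-203, whose longest frames have 264 codons, held 5.09% ± 0.40 and 4.83% ± 0.07. Iigp1-202 held 87.9% ± 1.79 and Iigp1-201 8.12% ± 4.04, and both encode 413 codons. In the second quantification Iigp1-202 held 79.8% ± 2.29 and Iigp1-201 16.7% ± 2.58. Ifi47-201 held 94.7% ± 0.25 of Ifi47 in the first quantification and 78.2% ± 3.37 in the second, where Ifi47-202 held 18.3% ± 1.72, against 4.65% ± 0.44 in the first. Tgtp2-201 held 98.5% ± 0.45 in the first and 77.3% ± 2.51 in the second. Tgtp1-201 held 98.2% ± 1.04 in the first quantification but 83.6%, 70.2% and 64.9% in the second, where the short transcript Tgtp1-203 took 14.8%, 28.8% and 31.4%. Likewise Tgtp2-202, a transcript of 370 bases, had 1.47% ± 0.45 of Tgtp2 in the first quantification and 22.7% ± 2.51 in the second. The mean share of the leading transcript thus moved by more between the methods in each of the 4 effectors than in each of the 3 regulators.

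**Figure D2:**
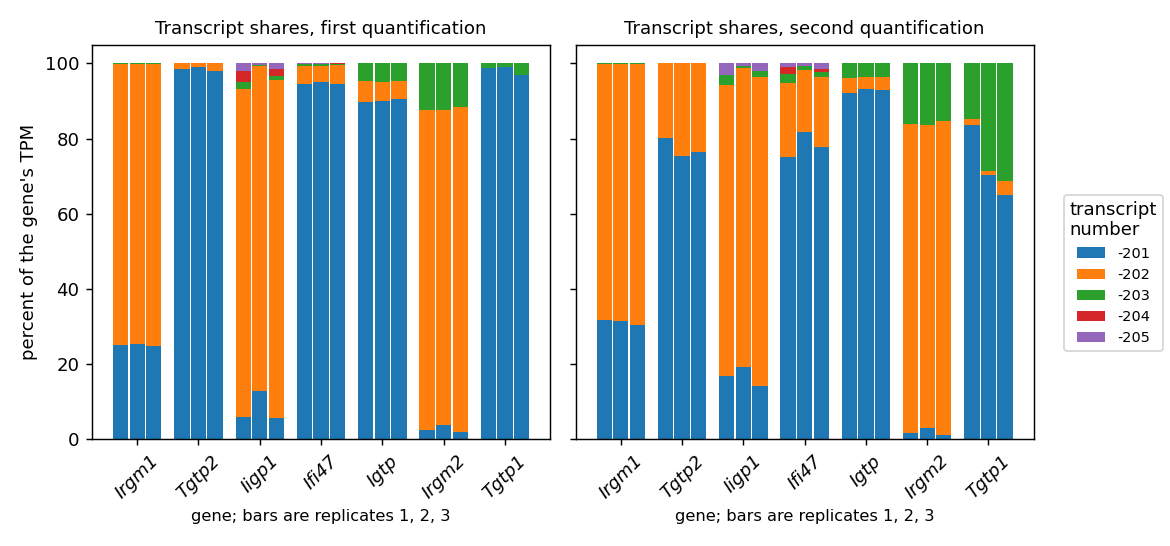
Percent of each gene's TPM carried by each annotated transcript, as stacked bars for replicates 1, 2 and 3, with the first quantification on the left and the second on the right. The bars of Irgm1 show the 2 transcripts at about 75% and 25% on the left, and the leading transcripts of Tgtp1, Tgtp2, Ifi47 and Iigp1 take less of the bars on the right.

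Every member was highest in replicate 1, next in replicate 3 and lowest in replicate 2. This order and the 1.5-fold limit used below were chosen after the values were seen. The order held for 7 of 7 members and for 35.7% of the 4243 genes with a mean of 10 TPM or more. It also held for 7 of 7 after scaling to protein-coding genes, after TMM scaling (which equalises the bulk of the genes), and in the second quantification scaled to protein-coding genes, and for 5 of 7 in the second quantification as deposited. The share of all genes in this order is given for the first quantification in TPM only. Whether the counts on the other scales exceed the share of all genes was therefore not tested. Replicate 1 was at least 1.5 times replicate 2 for 6 of 7 members, against 12.3% of all such genes, with Irgm1 below the limit at 1.44. The ratio was 1.78 for Irgm2, 2.01 for Igtp, 2.28 for Iigp1, 5.16 for Tgtp1, 2.28 for Tgtp2 and 1.76 for Ifi47.

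The libraries differed in composition as well, and that shifts TPM. Protein-coding genes held 32.7%, 27.4% and 27.8% of TPM in replicates 1, 2 and 3, and the median gene was 1.14 times as high in replicate 1 as in replicate 2. After scaling to protein-coding genes that median was 0.952, the members' median ratio fell to 1.68, against 2.01 in TPM, and 4 of 7 members, against 5.75% of genes, reached 1.5-fold. With TMM scaling the median gene was at 1.01 and the members lay between 1.28 for Irgm1 and 4.58 for Tgtp1. The part of these composition differences in the members' order was not tested beyond these scalings. Over the 4224 genes with a mean of 10 TPM or more and no zero, the median SD of log2(TPM) was 0.18. It was 0.27 for Irgm1, with 24.7% of genes more variable, between 0.42 and 0.60 for Irgm2, Igtp, Iigp1, Tgtp2 and Ifi47, and 1.22 for Tgtp1, with 0.545% of genes more variable.

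Counting error did not cover these differences. In edgeR's likelihood ratio test of any difference among the libraries with dispersion 0, 7 of 7 members and 71.1% of the 12372 genes tested had a Benjamini-Hochberg adjusted p under 0.05. The largest adjusted p of a member was 1.93e-152, for Irgm1. The test compares these libraries and not conditions, and most genes passed it.

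By the deviations of log2(TPM + 1) from a gene's own mean in the 3 libraries, the genes nearest to the members' average pattern, out of 4236 with a mean of 10 TPM or more, included Thbs1 (thrombospondin, a matrix glycoprotein), Isg15 (an interferon-induced ubiquitin-like protein), the processed transcript Gm20559 and Slfn9 (of the Schlafen family). The members' average deviated by 0.60, -0.51 and -0.09 in replicates 1, 2 and 3. Thbs1, at a Euclidean distance of 0.05, deviated by 0.64, -0.51 and -0.12, and Slfn9, at 0.06, by 0.55, -0.48 and -0.07. Isg15, itself at 898, 427 and 541 TPM, deviated by 0.60, -0.47 and -0.13. With 3 points per gene, many genes can share a pattern by their place in the library order alone.

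The rest of the family had means between 0.01 and 64.7 TPM. Of 10 further genes of the family in the annotation, 8 reached 1 TPM in every library. Gm5431 had 80.5, 55.3 and 58.2 TPM, a mean of 64.7 ± 13.8 TPM. It was followed by 9930111J21Rik2 (RefSeq synonym Irgb5) with 56.8 ± 14.3 TPM, Gm12250 (Irgb10, which acts on bacterial membranes) with 54.4 ± 14.3 TPM, Gm4951 (Ifgga2) with 44.9 ± 13.6 TPM and 9930111J21Rik1 with 38.5 ± 11.8 TPM. F830016B08Rik (Ifgga4) had 7.20 ± 2.75 TPM, and Irgq, a divergent member of the family, had 2.73 ± 0.21 TPM. Gm4841 (Ifgga3) had 2.68, 0.46 and 1.08 TPM, so that replicate 2 kept it below 1 TPM. Irgc1, known from testis, had 1 expected count in each library, at 0.01 TPM.

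Of these 10 genes, 8 followed the library order of the members, and Irgc1 and Irgq, the second at 2.52, 2.74 and 2.93 TPM, did not. Among all genes with a mean of 10 TPM or more, 35.7% were in this order. The gene lists here and below were not limited to that level. The summed level of the 10 genes was 352, 214 and 253 TPM. Where such genes are similar in sequence, the division of reads among them may be uncertain. Sequence identity among these 10 genes and the uncertainty of their counts were not examined here. Gm12185 (Irgb2b1), the non-member whose promoter window held the joined letters printed above, was 4.57 times as high in replicate 1 as in replicate 2, at few TPM.

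The guanylate-binding proteins, large GTPases that load onto the same vacuoles, reached 1 TPM in every library for 10 of 11 genes. The highest were Gbp2 with 260 ± 101 TPM, Gbp6 with 106 ± 30.6 TPM and Gbp3 with 85.8 ± 29.8 TPM, and the lowest was Gbp2b with 0.953 ± 0.349 TPM. Of the 11 genes, 9 followed the members' library order, and 10 were at least 1.5 times as high in replicate 1 as in replicate 2 at a mean of 1 TPM or more. Among all genes with a mean of 10 TPM or more, 35.7% followed that order and 12.3% reached that ratio. These counts are in TPM and were not scaled for the composition of the libraries. The median level of the list was 41.9 ± 12.3 TPM, and that of the members was 94.7 ± 29.0 TPM.

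RNA was detected for every gene on a list of interferon receptors, signal proteins and related regulators. All 13 genes of the list reached 1 TPM in every library. Among them, Stat2, which encodes a part of the complex that binds the ISRE, had 134 ± 40.0 TPM and the interferon receptor chain gene Ifnar2 63.7 ± 4.89 TPM. The lowest was the kinase gene Tyk2 with 22.9 ± 5.89 TPM. Of the 13 genes, 9 followed the members' library order and 6 were at least 1.5 times as high in replicate 1 as in replicate 2. The shares of all genes with a mean of 10 TPM or more were 35.7% and 12.3%.

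The interferon genes themselves were scarce, with 0 of 6 at 1 TPM in every library. Ifnb1 had 78, 33 and 37 expected counts, or 3.02, 0.78 and 0.84 TPM, and was highest in replicate 1, as the members were. Ifng had 0, 0 and 10 expected counts. Ifna1, Ifna2, Ifna4 and Ifna5 had 0 counts in every library, which allows at most 0.183 TPM by the limit of 3 counts in a library. These limits cover counting error only.

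The conjugation of ATG8 proteins to membranes is known to place immunity-related GTPases on the parasite vacuole. Its 10 genes all reached 1 TPM in every library. Gabarap had 248 ± 23.9 TPM, Map1lc3b 26.4 ± 5.12 TPM and Gabarapl1 21.9 ± 2.94 TPM, and the lowest was Map1lc3a with 4.27 ± 1.43 TPM. Of these 10 genes, 2 followed the members' library order and 0 reached 1.5-fold between replicates 1 and 2. Partners that mark the GTPase-coated vacuole with ubiquitin or act beside them were also present, with 7 of 7 at 1 TPM or more. In this list 3 of 7 genes followed the members' library order and 1 reached 1.5-fold between replicates 1 and 2. Beside both lists, the shares of all genes with a mean of 10 TPM or more were 35.7% and 12.3%. Sqstm1, the ubiquitin-binding adaptor p62, had 263, 257 and 141 TPM, a mean of 220 ± 68.7 TPM, and was lowest in replicate 3. The small GTPase gene Arf1 had 132 ± 6.21 TPM, the conjugating enzyme gene Ube2n 46.7 ± 5.31 TPM and the ligase gene Traf6, the lowest, 4.65 ± 0.358 TPM.

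**Figure D3:**
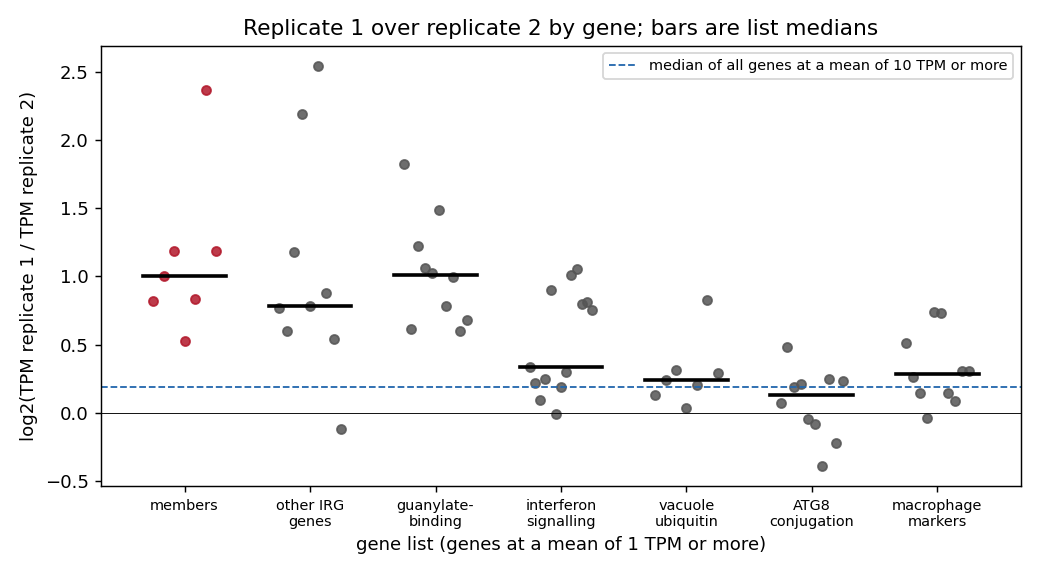
Log2 ratio of TPM in replicate 1 over replicate 2 for each gene with a mean of 1 TPM or more, by gene list, with bars at the list medians and a dashed line at the median of all genes with a mean of 10 TPM or more. The members, on the left in red, lie above the dashed line with Tgtp1 highest, as most guanylate-binding genes and other genes of the family do, while the ATG8 conjugation genes lie around it.

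The labelled cell type was checked against its markers. All 10 macrophage markers reached 1 TPM in every library, led by Lyz2 with 3120 ± 176 TPM, Adgre1 with 641 ± 148 TPM and Cd68 with 608 ± 168 TPM. Their summed level was 5487, 4705 and 4901 TPM in replicates 1, 2 and 3, and most of it came from Lyz2. The sum was highest in replicate 1 and lowest in replicate 2. The median of the list was 124, 115 and 133 TPM, highest in replicate 3, and 3 of the 10 markers followed the members' library order. Among all genes with a mean of 10 TPM or more, 35.7% were in that order. These marker values were not scaled for the composition of the libraries. Of the other lineages, 3 of 8 neutrophil markers, 0 of 7 T and NK cell markers and 1 of 5 B cell markers reached 1 TPM in every library. So did 0 of 5 dendritic cell markers and 1 of 6 stroma and endothelium markers. The neutrophil sum was 10.2, 12.6 and 17.6 TPM, lowest in replicate 1 and highest in replicate 3, with Ly6g at 0. The T and NK cell sum was at most 0.34 TPM, the B cell sum 1.13 to 2.57 TPM and the dendritic cell sum 0.64 to 1.16 TPM. The stroma and endothelium sum was 10.8, 3.84 and 3.61 TPM, with Pdgfra at 0, and most of it came from Kdr at 9.26, 3.09 and 1.97 TPM. The part of these markers in the members' library order was not tested.

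**Figure D4:**
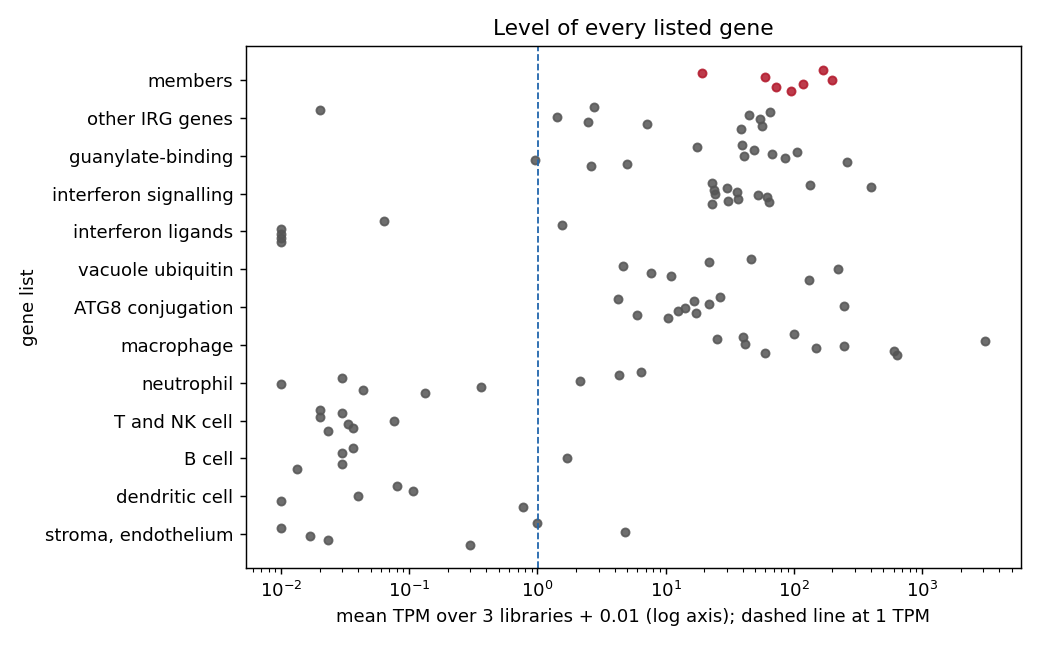
Mean TPM over 3 libraries of every listed gene, plus 0.01 so that genes at 0 can be drawn on the log axis, by gene list, with a dashed line at 1 TPM. The 7 members, at the top in red, lie between 19.3 and 198 TPM, overlapping the interferon signalling and macrophage genes, while T and NK cell markers lie below 1 TPM.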

How the data were processed

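For every library there are gene and transcript tables in the RSEM column layout and a further transcript table in that of kallisto, per the file headers. Build and annotation were mm10 and GENCODE M21, as the authors' deposited text states. Programs, versions and strand are not stated in what was read here. The gene-level tables hold expected counts and TPM as deposited by the authors, and the transcript tables the percent of a gene's abundance per transcript, also deposited. The second tables hold estimated counts and TPM as deposited, summed per gene here. All 105 listed symbols matched the annotation.

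The members and gene lists were chosen with earlier results of these data known. Named were all members, every further family gene, the 3 highest and the 1 lowest of each other pathway list, and the 5 genes with the nearest library pattern. Some genes this rule takes are not reported here. Expected counts were rounded and tested with edgeR 4.0.16 in R 4.3.3 (TMM, filterByExpr, dispersion 0, Benjamini-Hochberg over all genes). On data simulated for that comparison, over 12285 genes, it recovered 72% of genes changed 1.25-fold and 100% of those changed 4-fold, with 8 false calls. No other test was made, since there is 1 group. Sequences were read from GENCODE transcripts and RefSeq promoters and compared with Biopython 1.88. No protein sequence table was used here. Alternatives were other scalings, the second quantification, other filters and tools, and leaving out each library.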

Additional observations from a re-analysis of the deposited data

How the results depend on the processing

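The summed level of the 7 genes was 731 TPM as deposited. It was 363 TPM in the second quantification and 2462 TPM after scaling to protein-coding genes, since both change what the sum is relative to, and 723 TPM with TMM scaling. Leaving out 1 library gave 598 to 836 TPM. The number of members called at least 2-fold different between quantifications was 0, became 5 at 1.5-fold, and ranged from 0 to 5 when 1 library was left out. The members lie close to the general ratio of the 2 methods, so the call depends on this limit. The number stayed at 0 at 4-fold, without a minimum level and after protein-coding scaling. For the 1.5-fold limit and for 1 library left out, no share of all genes is given beside these counts. The count of members beyond counting noise (7) and of neighbouring pairs in order beyond their spread (5) stayed within 1.5 times under every alternative run. No paired analysis was possible because the series holds 1 group. The 3 libraries limit every error, and reads divided between Tgtp1 and Tgtp2 limit both genes. Without a control library, no value is a response.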
